A study of Mus musculus with 36 samples.

Results

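The genes described here are 10 transcripts that respond to the Ras-Raf-Mek-Erk cascade, namely *Dusp6*, *Dusp1*, *Spry2*, *Spry4*, *Spred1*, *Etv5*, *Egr1*, *Fos*, *Jun* and *Myc*. They were chosen by name, and all 10 were found among the 24421 genes of the count tables and passed the filter on low counts in every comparison. Their RNA was measured in liver by RNA sequencing of 36 male C57BL/6J mice, with 1 library from each mouse. All of the mice had first received CDAHFD, a high-fat diet deficient in choline with amino acids in place of protein, for 12 weeks, which brings on fatty, inflamed and fibrotic liver, and they had been bought at 7 weeks of age and acclimated for 1 week. They were then moved either to an ordinary high-fat diet (HFD) for 2 weeks or to a standard diet for 10 days. On the HFD, 10 mice received Fc at 4.3 mg/kg and 10 mice received Fc(mML1)B3 at 5 mg/kg, as 2 weekly injections. On the standard diet, Fc went to 9 mice and Fc(mML1)B3 to 7 mice, in unchanged doses, on days 1, 4 and 7. Fc is the crystallizable fragment of human IgG1. Fc(mML1)B3 is the same fragment with a macrocyclic peptide that binds mouse Met grafted into one of its loops, and it acts as a mimetic of hepatocyte growth factor (HGF). Diet, length of treatment, number and spacing of injections and the experiment itself changed together, and their effects cannot be told apart. The day of the last injection on the HFD was not given in the sources used here. The time from the last injection to collection may therefore differ between the diets as well.

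HGF acts through the receptor tyrosine kinase Met, which recruits the adaptors Grb2 and Gab1 and, through Sos, loads Ras with GTP. Ras then starts the kinase chain of Raf, Mek and Erk, and in liver this route is best known for driving hepatocytes into the cell cycle after injury. Active Erk switches on immediate early genes within minutes, and later raises its own inhibitors, which include phosphatases, Sproutys and Spreds. Both groups of transcripts fall back once the signal ends, so a level in tissue taken days into a treatment is a reading at the time of collection.

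The libraries held between 14949035 and 28466853 counted reads (median 23558194.5). Depth differed between the groups, with medians of 19023641.0 (Fc) and 20147652.0 (Fc(mML1)B3) on the HFD, against 23088985.0 and 25968982.0 on the standard diet. Levels are given in CPM, counts scaled to the size of each library, on libraries scaled by TMM, a normalization that assumes most genes do not change. The 6 hepatocyte markers together held between 72000 and 146000 CPM over the 36 libraries. In whole liver, fewer cells of a type and less RNA per cell cannot be told apart.

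The sequences just upstream of *Dusp1*, *Fos* and *Jun* are shown because these are the members that passed a test below and whose windows hold the letters of a cyclic AMP response element, or a near form of it, an element through which growth factor and stress kinases also act on immediate early genes. Of the 10 members, 7 were matched to the RefSeq promoter table (GRCm38.p6, the mm10 assembly), and *Spry4*, *Egr1* and *Myc* were not matched. Each line gives the 250 bases before the RefSeq start on the strand of the gene, 5′ to 3′, with capitals marking TGACG or TGANNTCA searched on both strands. The *Dusp1* window is chr17:26508473-26508722 on the minus strand, the *Fos* window is chr12:85473640-85473889 on the plus strand and the *Jun* window is chr4:95052223-95052472 on the minus strand.
Dusp1: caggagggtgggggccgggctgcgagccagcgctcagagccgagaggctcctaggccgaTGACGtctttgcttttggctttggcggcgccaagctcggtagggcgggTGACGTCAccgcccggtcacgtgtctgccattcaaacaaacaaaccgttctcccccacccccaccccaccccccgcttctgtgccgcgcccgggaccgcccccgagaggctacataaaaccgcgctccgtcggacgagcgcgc
Fos: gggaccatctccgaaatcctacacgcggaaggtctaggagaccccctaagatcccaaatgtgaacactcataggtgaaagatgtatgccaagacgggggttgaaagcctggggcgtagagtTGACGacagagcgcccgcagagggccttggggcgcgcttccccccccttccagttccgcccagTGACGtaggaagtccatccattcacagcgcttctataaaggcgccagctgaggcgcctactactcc
Jun: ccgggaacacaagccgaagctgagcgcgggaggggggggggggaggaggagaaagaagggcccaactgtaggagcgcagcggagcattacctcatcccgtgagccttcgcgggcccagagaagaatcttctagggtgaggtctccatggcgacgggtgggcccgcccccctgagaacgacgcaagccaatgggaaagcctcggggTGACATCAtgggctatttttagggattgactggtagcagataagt

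*Dusp1* held the full palindrome TGACGTCA ending 136 bases before its start, which 1.55% of the 32851 windows of the same length held on either strand. It also held a separate 5-base site TGACG from 191 to 187 bases upstream, and an E-box CACGTG, the element bound by the clock and Myc families, from 126 to 121 bases upstream. *Fos* held TGACG from 129 to 125 and from 66 to 62 bases upstream, and a TATA box TATAAA from 33 to 28 bases upstream. TGACG was common, occurring in 17.8% of all windows, and every TGACGTCA also counts as one. The E-box stood in 6.02% of the windows and the TATA box in 12.4%. *Jun* held TGACATCA from 45 to 38 bases upstream, one form of TGANNTCA, which 11.9% of windows held. These matches describe letters in the sequence and were not tested as binding sites.

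Across the 36 livers, the inhibitors of the cascade stood both at the top and at the bottom of the order of levels. Per kilobase of transcript, *Dusp6* had the highest median level at 16.2 CPM per kb, followed by *Dusp1* (13.7), *Jun* (9.68), *Egr1* (6.34), *Spred1* (4.01) and *Myc* (3.29). Below them came *Etv5* (1.72), *Spry4* (1.69), *Fos* (1.14) and *Spry2* (1.13). In the mm10 annotation of the files, *Dusp6* spans chr10:99263231-99267489, *Dusp1* chr17:26505591-26508472, *Jun* chr4:95049036-95052222, *Fos* chr12:85473901-85477270, *Spry2* chr14:105891947-105896819 and *Myc* chr15:61985341-61990361, and no member shares exon sequence with another gene. The ranges of all 9 pairs of neighbours in this order overlapped over the 36 mice. Within single livers, *Myc* exceeded *Etv5* per kilobase in 36 of 36 mice, whereas *Etv5* exceeded *Spry4* in 18 of 36 and *Fos* exceeded *Spry2* in 16 of 36. *Fos* and *Spry2* rested on few reads, between 14 and 94 reads per library for *Fos* and between 26 and 146 for *Spry2*, so their counting error was the largest of the 10.

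The members also differed in how widely they varied among mice of one group. *Spred1*, which brings the Ras inactivator neurofibromin to the membrane, had a coefficient of variation of 12.3% to 19.5% over the 4 groups and *Jun* one of 13.6% to 20.7%. *Spred1* had the lowest of the members in each group except the Fc(mML1)B3 mice on the HFD, where *Jun* (15.7%) and *Fos* (15.9%) were lower. *Myc*, a growth-promoting transcription factor, varied by 48.8% to 103.0% and *Egr1*, an immediate early zinc finger factor, by 45.5% to 75.2%. The highest *Myc* level of any mouse was 12.1 times the lowest, against 2.23 times for *Spred1*.

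**Figure D1:**
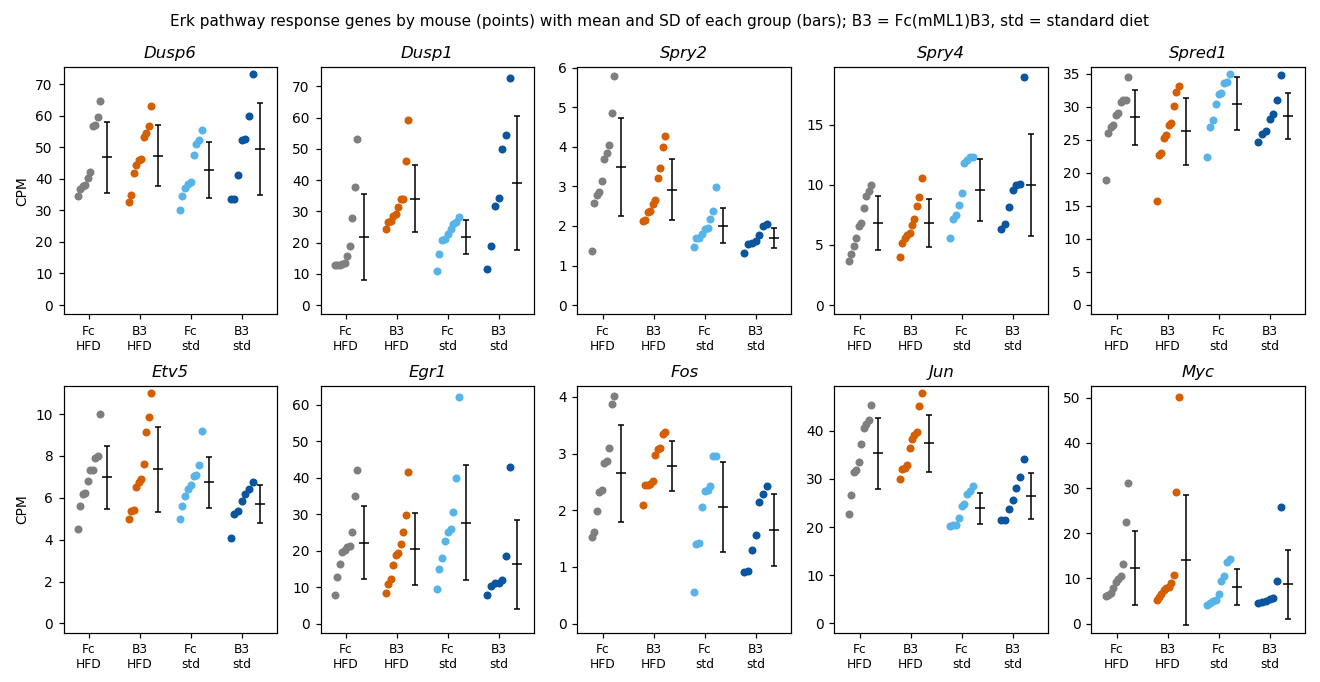
Level of each of the 10 genes in every mouse, in CPM on a linear axis, for the 4 groups on the horizontal axis; each point is 1 mouse, ordered by level within a group, and the bar and whiskers are the mean and SD of the group. *Jun* and *Spry2* sit lower on the standard diet in both treatments, *Dusp1* sits higher in most Fc(mML1)B3 mice, and *Myc* and *Egr1* scatter widely within groups, so that the mean minus SD of *Myc* falls below 0 in the Fc(mML1)B3 group on the HFD.

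The first comparison asks what the Met agonist did to these transcripts on the HFD. *Dusp1*, a nuclear phosphatase that dephosphorylates the stress kinases Jnk and p38 as well as Erk, had the largest difference. Its level ran from 12.7 through a median of 14.7 to 53.3 CPM in the Fc group, and from 24.4 through 30.4 to 59.1 CPM in the Fc(mML1)B3 group. All 10 Fc(mML1)B3 mice lay above the Fc median, although only 1 lay above every Fc mouse, since a few Fc mice were also high. The log2 fold change was 0.66 (SE 0.25, 95% confidence interval 0.14 to 1.18), which did not pass the test (edgeR adjusted p = 0.0813). It passed with limma-voom (0.83, adjusted p = 0.0184). Without Fc mouse 8, which had the highest level of its group, it also passed (0.91, edgeR adjusted p = 0.00604), as it did without Fc mouse 10 (0.79, edgeR adjusted p = 0.0362).

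Accordingly, 0 of the 10 members passed in edgeR's test on the HFD at an adjusted p of 0.05, where 14.8% of the 13299 genes tested did (8.14% higher and 6.68% lower). At the study's thresholds for this diet, an adjusted p under 0.1 and a fold change above 2, the count was again 0 of 10, against 1.34% of all genes. One member, *Dusp1*, had an unadjusted p under 0.05, beside 3966 of the 13299 genes. DESeq2 called 0 members and limma-voom called 1, beside 2287 and 1867 of all genes. The median log2 fold change of the members was 0.06 and that of all genes tested was -0.01.

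Among the other inhibitors on the HFD, *Dusp6*, the cytoplasmic phosphatase specific to Erk, ran from 34.7 through 41.2 to 64.6 CPM in the Fc group and from 32.8 through 46.1 to 63.0 CPM in the Fc(mML1)B3 group. The groups overlapped almost wholly, and the interval of the log2 difference was -0.24 to 0.3. *Spred1* had a similarly narrow interval of -0.32 to 0.12. *Spry2* and *Spry4*, adaptors that hold back Ras activation by receptor tyrosine kinases, had intervals of -0.65 to 0.17 and -0.37 to 0.39. A 1.5-fold rise lay outside all 4 intervals, and a 1.5-fold fall lay outside all but that of *Spry2*.

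The transcription factors on the HFD had differences that were small against their spread. *Jun* and *Fos*, partners in the AP-1 factor, had log2 fold changes of 0.1 (interval -0.13 to 0.33) and 0.09 (-0.26 to 0.44). *Etv5*, an ETS factor of the PEA3 family, had a value of 0.09 (-0.22 to 0.4). For *Egr1* and *Myc* the intervals were wide, at -0.65 to 0.46 and -0.62 to 1.07, and both held a 1.5-fold fall. The *Myc* interval also held a 1.5-fold rise. Without Fc(mML1)B3 mouse 2 the *Myc* value turned from 0.23 to -0.26 (edgeR adjusted p = 0.64). The *Myc* level of the Fc(mML1)B3 group ran from 5.34 through 8.04 to 50.1 CPM, and that of the Fc group from 6.22 through 9.58 to 31.2 CPM. The adjusted p of the 9 members other than *Dusp1* was between 0.434 and 0.979 in edgeR.

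Other measures differed between the same 2 groups, where 8.14% of all genes were called higher and 6.68% lower. All 7 heat shock genes tested were higher with the agonist on the HFD, and their summed level ran from 2080 to 3210 CPM against 933 to 1800 CPM in the Fc group. Of 12 genes of the circadian clock tested, 5 were higher and 6 lower, and the time of day of collection was not given in the sources used here. The core clock activator *Arntl* had a log2 fold change of 3.98 (edgeR adjusted p = 1.08e-08), with 6.59 to 28.6 CPM against 0.621 to 2.12 CPM. Of the neutrophil markers, 3 of 5 tested were lower, although limma-voom called 1. The 6 lymphocyte markers had log2 fold changes of -0.75 to -0.3, of which edgeR called 1 and DESeq2 and limma-voom 2 each. *Tsc22d3*, a glucocorticoid-induced gene chosen here after its values were seen, ran from 46.3 through 88.8 to 179 CPM in the Fc group and from 125 through 173 to 227 CPM in the Fc(mML1)B3 group. Library numbers in the file headers ran in 1 series for the Fc mice and in 2 for the Fc(mML1)B3 mice, and *Dusp1* had log2 fold changes of 0.70 with only mice 1 to 4 of the Fc(mML1)B3 group (edgeR adjusted p = 0.198) and 0.64 with only mice 5 to 10 (edgeR adjusted p = 0.191). The part of these measures in the *Dusp1* values was not tested.

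On the standard diet, the Met agonist group had a higher level of *Dusp1*. The Fc group ran from 10.8 through 22.7 to 28.2 CPM and the Fc(mML1)B3 group from 11.5 through 34.2 to 72.8 CPM. The treated mice were split, since 5 of 7 lay above every Fc mouse and the other 2 lay below the Fc median. The log2 fold change was 0.83 (SE 0.27, 95% confidence interval 0.26 to 1.4, 1.78-fold), and it passed narrowly (edgeR adjusted p = 0.0425). *Dusp1* was the 1 member of 10 to pass, where 16.1% of the 13570 genes tested passed, 8.56% as higher and 7.55% as lower. It also met one pair of thresholds named by the study for this diet, an adjusted p under 0.05 and a fold change above 1.5, as did 2.36% of all genes. It did not reach the fold change of 2 that the study names as well. 2 members had an unadjusted p under 0.05, beside 3974 of the 13570 genes.

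The *Dusp1* call on the standard diet depended on the analysis and on single mice. It did not pass with limma-voom (0.66, adjusted p = 0.156) or when all 36 libraries shared 1 edgeR fit (0.84, adjusted p = 0.0915). With only Fc mice 6 to 9, whose library numbers adjoined those of the Fc(mML1)B3 mice, the value was 0.76 (edgeR adjusted p = 0.229). Leaving out 1 mouse at a time gave log2 fold changes of 0.61 to 0.99 and edgeR adjusted p-values of 0.00518 to 0.13. The call held only without Fc mouse 5 or without Fc(mML1)B3 mouse 1, 2 or 3, and was lost without any of the other 12 mice. For example, it was 0.61 without Fc(mML1)B3 mouse 7, the lowest of these values (edgeR adjusted p = 0.13).

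*Egr1* had the largest difference in the other direction on the standard diet, but it did not pass. The Fc group ran from 9.43 through 25 to 62.2 CPM and the Fc(mML1)B3 group from 7.94 through 11.1 to 43.0 CPM. Of the 7 treated mice, 6 lay below the Fc median and 1 lay above it. The log2 fold change was -0.76 (SE 0.36, 95% confidence interval -1.51 to -0.01, edgeR adjusted p = 0.165). Without Fc(mML1)B3 mouse 3, the 1 high mouse, it was -1.23 and passed (edgeR adjusted p = 0.0116).

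For the remaining inhibitors on the standard diet, the log2 fold changes were 0.2 for *Dusp6* (interval -0.12 to 0.53), -0.25 for *Spry2* (-0.58 to 0.07), 0.06 for *Spry4* (-0.37 to 0.49) and -0.1 for *Spred1* (-0.28 to 0.08). *Spred1* was again the most tightly bounded of them. Among the factors, *Etv5* had a value of -0.24 (-0.49 to 0.01, edgeR adjusted p = 0.191), with 6 of 7 treated mice below the Fc median. *Fos*, *Jun* and *Myc* had values of -0.31 (-0.9 to 0.28), 0.14 (-0.07 to 0.35) and 0.09 (-0.67 to 0.85). The *Myc* value had no settled sign, at -0.49 without Fc(mML1)B3 mouse 3 and 0.01 to 0.23 when any other single mouse was left out. The median over the 10 members was -0.02, and that over all genes tested was -0.01. Of 13 clock genes tested under this diet, 5 were higher and 4 lower, whereas 0 of 7 heat shock genes passed in edgeR, DESeq2 or limma-voom and 1 had an unadjusted p under 0.05. *Arntl* fell here, by 1.05 on the log2 scale (edgeR adjusted p = 0.0108), although not with only Fc mice 6 to 9 (-0.76, edgeR adjusted p = 0.171). Of the 6 stellate cell markers, 2 were lower with the agonist on this diet and 5 had an unadjusted p under 0.05, with summed levels of 169 to 200 CPM against 171 to 259 CPM. Of the 6 cholangiocyte markers 1 was lower, with 178 to 411 CPM against 228 to 500 CPM. Over all genes, 16.1% were called on this diet, 7.55% of them lower as a share of all tested. An unadjusted p under 0.05 was seen for 3974 of the 13570 genes. *Tsc22d3* ran from 54.1 to 125 CPM in the Fc group, with a mean of 77.4 ± 22.4 CPM (SD, n = 9), and from 46.5 to 158 CPM in the Fc(mML1)B3 group, with a mean of 113 ± 44.1 CPM (SD, n = 7). The part of the clock, stellate cell and cholangiocyte genes and of *Tsc22d3* in the *Dusp1* and *Egr1* values was not tested.

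The next comparison sets the Met agonist effect on one diet against that on the other, in 1 fit of all 36 mice. None of the members passed in edgeR, with 0 of 10 against 9.06% of the 14105 genes tested (4.66% higher and 4.4% lower), and 0 had an unadjusted p under 0.05, beside 2957 of all genes. DESeq2 and limma-voom each called 0. The adjusted p ran from 0.404 to 0.996. For *Dusp1*, the log2 difference between the effects was 0.19 with an interval of -0.61 to 1.0, so an effect of the same size and one that was clearly larger under either diet were both within it. *Egr1* had the value farthest from 0, at -0.64 (-1.6 to 0.31). The HFD and the standard diet experiments used separate Fc mice.

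**Figure D2:**
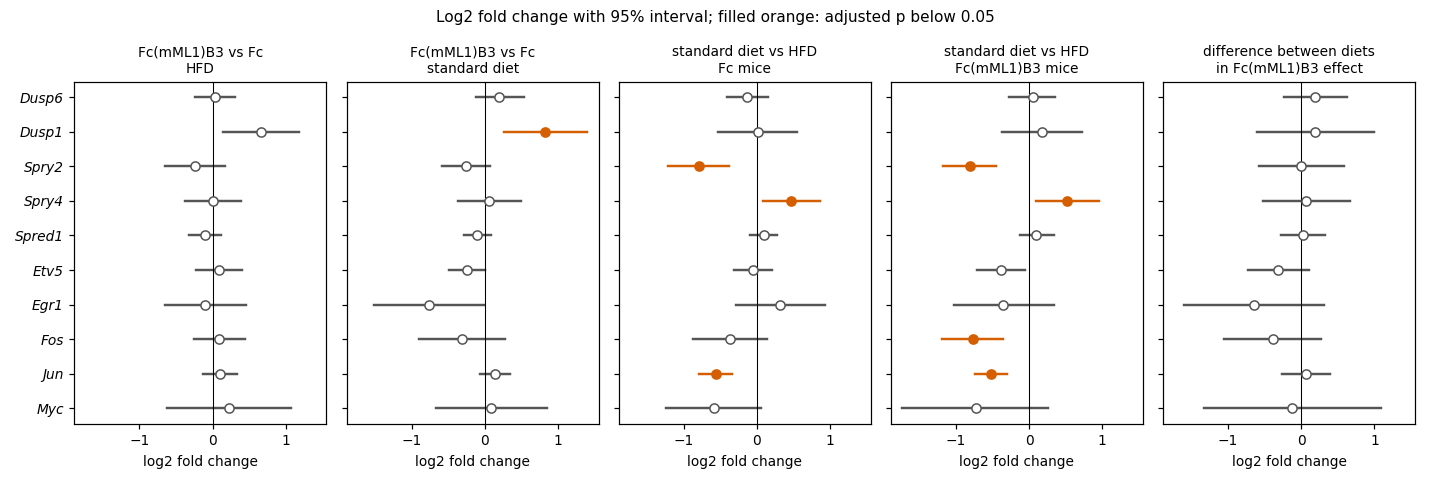
Log2 fold change of each member in the 4 comparisons between groups and in the interaction of diet and treatment, with 95% confidence intervals from edgeR; filled symbols mark an adjusted p under 0.05. *Dusp1* lies above 0 in both treatment comparisons, *Egr1* lies below 0 on the standard diet without passing, and *Jun* and *Spry2* lie below 0 in both diet comparisons.

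The diet comparisons hold the members that differed with the smallest p-values. They set the standard diet experiment against the HFD experiment within one treatment, and the 2 comparisons share no mice. In the Fc mice, 3 of 10 members passed, where 49.0% of the 13506 genes tested did. 1 member was higher and 2 were lower, against 23.9% and 25.2% of all genes. In the Fc(mML1)B3 mice, 4 of 10 members passed, where 38.2% of the 13627 genes tested did, with 1 higher and 3 lower, and 19.1% of all genes passed in each direction. The share of members that passed was thus below that of all genes in the Fc mice and close to it in the Fc(mML1)B3 mice. Scaling by the upper quartile moved the calls over all genes from 3222 higher and 3398 lower to 2454 higher and 4769 lower in the Fc mice, and from 2598 and 2608 to 2043 and 3605 in the Fc(mML1)B3 mice. Under that scaling *Jun* and *Spry2* remained lower in both.

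*Jun* was lower on the standard diet in both treatments. In the Fc mice its level ran from 22.7 through 35.3 to 45.4 CPM on the HFD and from 20.2 through 24.4 to 28.5 CPM on the standard diet. All 9 standard diet mice lay below the HFD median and 4 lay below every HFD mouse. The log2 fold change was -0.56 (SE 0.11, edgeR adjusted p = 0.00025). In the Fc(mML1)B3 mice the level ran from 30 through 37.4 to 47.9 CPM on the HFD and from 21.4 through 25.7 to 34.1 CPM on the standard diet, with a log2 fold change of -0.52 (SE 0.11, edgeR adjusted p = 0.00074). Here all 7 standard diet mice lay below the HFD median, and 5 lay below every HFD mouse.

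*Spry2* was lower as well. Between the Fc(mML1)B3 groups the mice did not overlap, with 2.13 to 4.28 CPM on the HFD (median 2.61) and 1.31 to 2.06 CPM on the standard diet (median 1.61). The log2 fold change was -0.81 (SE 0.17, edgeR adjusted p = 0.000985). Levels in the Fc mice ran from 1.37 through 3.41 to 5.78 CPM on the HFD and from 1.48 through 1.93 to 2.98 CPM on the standard diet. All 9 standard diet mice lay below the HFD median, and the log2 fold change was -0.79 (SE 0.20, edgeR adjusted p = 0.00234). *Jun* and *Spry2* passed under each of the 6 other settings tried and without any 1 mouse, in both comparisons.

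*Fos* passed in the Fc(mML1)B3 mice. Its level ran from 2.09 through 2.75 to 3.38 CPM on the HFD and from 0.91 through 1.56 to 2.42 CPM on the standard diet, and 4 of 7 standard diet mice lay below every HFD mouse. The log2 fold change was -0.77 (SE 0.20, edgeR adjusted p = 0.00449), and it passed under all 6 other settings and without any 1 mouse. For the Fc mice the value was -0.37 (interval -0.87 to 0.14, edgeR adjusted p = 0.218), with levels from 0.564 through 2.34 to 2.96 CPM on the standard diet and from 1.53 through 2.6 to 4.02 CPM on the HFD. The test of the difference between these 2 values, the interaction of diet and treatment, gave -0.39 (edgeR adjusted p = 0.557).

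*Spry4* was the only member that was higher on the standard diet, and its call was fragile. In the Fc mice the level ran from 3.69 through 6.73 to 9.98 CPM on the HFD and from 5.57 through 9.3 to 12.3 CPM on the standard diet (log2 fold change 0.47, SE 0.19, edgeR adjusted p = 0.0428). Of the 9 standard diet mice, 8 lay above the HFD median and 4 above every HFD mouse. The call was lost with limma-voom (0.43, adjusted p = 0.0712), under upper-quartile scaling (0.38, edgeR adjusted p = 0.0878), and without any one of HFD mice 3, 4, 6, 7, 8 and 10 or standard diet mice 1, 2, 3, 4 and 9. Over all mice left out in turn, the log2 fold change was 0.41 to 0.55.

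In the Fc(mML1)B3 mice, *Spry4* ran from 4.01 through 6.32 to 10.6 CPM on the HFD and from 6.36 through 9.58 to 19 CPM on the standard diet (log2 fold change 0.52, SE 0.20, edgeR adjusted p = 0.0489). All 7 standard diet mice lay above the HFD median, but only 1 lay above every HFD mouse. This call too was lost with limma-voom (adjusted p = 0.0786), with upper-quartile scaling (edgeR adjusted p = 0.0841) and without any one of HFD mice 1, 4, 5, 7, 8, 9 and 10 or standard diet mice 3, 5, 6 and 7. Over all mice left out in turn, the log2 fold change was 0.29 to 0.62. Standard diet mouse 7 had the highest *Spry4* level of all 36 mice.

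*Etv5* lay just outside the threshold in the Fc(mML1)B3 mice, at -0.39 (SE 0.16, edgeR adjusted p = 0.0547). It ran from 4.99 through 6.83 to 11 CPM on the HFD and from 4.1 through 5.84 to 6.77 CPM on the standard diet, and all 7 standard diet mice lay below the HFD median. It passed with DESeq2 (adjusted p = 0.0417), with upper-quartile scaling (edgeR adjusted p = 0.0293) and with all 36 libraries in 1 fit (edgeR adjusted p = 0.0493), and also without HFD mouse 1, 6 or 10 or without standard diet mouse 7. The *Etv5* value in the Fc mice was -0.05 (edgeR adjusted p = 0.763).

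The 2 most variable factors did not pass in either diet comparison. *Myc* had log2 fold changes of -0.59 in the Fc mice (edgeR adjusted p = 0.125) and -0.73 in the Fc(mML1)B3 mice (edgeR adjusted p = 0.235), and *Egr1* had 0.32 (edgeR adjusted p = 0.374) and -0.35 (edgeR adjusted p = 0.425). Single animals moved the values in the Fc(mML1)B3 mice, over -1.31 to -0.24 for *Myc* and -0.81 to -0.16 for *Egr1* when each mouse was left out in turn. Without standard diet mouse 3 of the Fc(mML1)B3 group, which was high for both genes, *Myc* was -1.31 (edgeR adjusted p = 0.0315) and *Egr1* was -0.81 (edgeR adjusted p = 0.0291) in those mice. Without HFD mouse 2 of that group, *Myc* was -0.24 (edgeR adjusted p = 0.653). *Dusp6*, *Dusp1* and *Spred1* had diet differences between -0.13 and 0.18 on the log2 scale, with edgeR adjusted p-values of 0.378 to 0.981.

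Some markers of several cell types, heat shock genes and clock genes also differed between the diets. Their counts stand beside 49.0% of all genes called in the Fc mice and 38.2% in the Fc(mML1)B3 mice. The hepatocyte and cholangiocyte counts were near these shares. Of the 6 stellate cell markers, 4 were lower on the standard diet in the Fc mice and 3 in the Fc(mML1)B3 mice, and 0 were higher. Their summed level ran from 205 to 400 CPM in the Fc mice on the HFD and from 171 to 259 CPM on the standard diet, and from 180 to 417 CPM and 169 to 200 CPM in the Fc(mML1)B3 mice. Of the 6 cholangiocyte markers, 3 and 2 were lower, although limma-voom called 0 in the Fc mice, where 3 had an unadjusted p under 0.05 in edgeR. Of the 6 hepatocyte markers, 3 and 2 were higher, and of the 6 lymphocyte markers 5 were lower in the Fc mice and 0 in the Fc(mML1)B3 mice. Of the 6 macrophage markers, 1 was lower in each treatment. Among the 6 endothelial markers, 1 was higher in the Fc mice, and 1 was higher and 1 lower in the Fc(mML1)B3 mice. Among 5 neutrophil markers, 2 were lower in the Fc mice, where DESeq2 called 4. In the Fc(mML1)B3 mice, 1 neutrophil marker was higher and 1 lower. The 7 heat shock genes were all lower on the standard diet in the Fc(mML1)B3 mice, and 1 was lower in the Fc mice. Of the clock genes tested, 9 of 12 passed in the Fc mice and 11 of 13 in the Fc(mML1)B3 mice, with *Arntl* at 1.73 and -3.3 (edgeR adjusted p = 3.32e-06 and 3.24e-07). None of these lists had a gene at 0 in any group. The part of these cells and of the heat shock and clock genes in the *Jun*, *Spry2* and *Fos* values was not tested.

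The rest of the pathway was read from 3 lists of genes that are not members. The first holds 20 genes of the cascade itself, from the adaptors to the kinases that Erk acts on. On the HFD, 0 of the 20 were higher and 2 lower in the Fc(mML1)B3 group, namely *Mapk3*, which encodes Erk1 (log2 fold change -0.39, edgeR adjusted p = 0.00189), and *Rps6ka1*, a ribosomal S6 kinase that Erk activates (-0.3, edgeR adjusted p = 0.0135). The median of the list was 0.04. With the standard diet, 2 were higher and 3 lower, with a median of -0.04. Over all genes, 14.8% were called on the HFD and 16.1% on the standard diet.

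*Gab1*, the docking protein that links Met to Ras and to phosphoinositide signalling, had the smallest p-value of the cascade genes on the standard diet. It ran from 14.4 through 17.9 to 19.1 CPM in the Fc group and from 21.1 through 23.3 to 26 CPM in the Fc(mML1)B3 group. The groups did not overlap, and the log2 fold change was 0.44 (SE 0.06, edgeR adjusted p = 6.59e-05). On the HFD, *Gab1* ran from 14.6 to 24.5 CPM and from 13 to 24.2 CPM and overlapped throughout. The effect on *Gab1* differed between the diets by 0.63 (edgeR adjusted p = 0.00224). *Map2k2*, which encodes Mek2, was also higher on the standard diet (0.21, edgeR adjusted p = 0.0134), whereas the Ras exchange factor *Sos1* (-0.24, edgeR adjusted p = 0.0132) and the S6 kinase *Rps6ka3* (-0.3, edgeR adjusted p = 0.00674) were lower.

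The second list holds 14 other inhibitors of the pathway, both feedback inhibitors and the Ras inactivators *Nf1*, *Rasa1* and *Rasal2*. Of the 14, 12 were tested in each treatment comparison. On the HFD 0 passed in edgeR and in DESeq2, 1 passed with limma-voom and 1 had an unadjusted p under 0.05, where 14.8% of all genes passed in edgeR and 3966 of 13299 had such an unadjusted p. With the standard diet, 1 was higher and 3 were lower with the agonist, beside 8.56% and 7.55% of all genes. *Rasal2*, which inactivates Ras, was higher (0.53, edgeR adjusted p = 0.000223), though it shares exon sequence with another gene, 2810025M15Rik, and their reads cannot be separated. The Ras inactivator *Nf1* (-0.31, edgeR adjusted p = 0.0015), the Spred family member *Spred2* (-0.39, edgeR adjusted p = 0.00689) and *Il17rd*, also called Sef (-0.77, edgeR adjusted p = 0.0177), were lower. The median of the list was -0.1 on the HFD and -0.2 on the standard diet.

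Among 27 other transcription factors and immediate early genes, 0 were higher under the Met agonist, with 2 of 25 tested lower on the HFD and 3 of 24 lower on the standard diet. Over all genes, 8.14% and 8.56% were higher and 6.68% and 7.55% lower. The share of the list that was lower was near that of all genes on the HFD and somewhat above it on the standard diet. DESeq2 called 2 and 6 of the list, beside 2287 of 13299 and 2491 of 13043 genes. *Junb*, another AP-1 subunit of the Jun family, was lower under both. On the HFD it ran from 19.2 through 32.4 to 61.5 CPM in the Fc group and from 15.6 through 17.1 to 27.1 CPM in the Fc(mML1)B3 group, where all 10 mice lay below the Fc median (log2 fold change -0.8, SE 0.16, edgeR adjusted p = 0.00164). For the standard diet it ran from 29.7 through 39.6 to 56.4 CPM and from 13.9 through 17.6 to 31.6 CPM, and 6 of 7 treated mice lay below every Fc mouse (-1.05, SE 0.16, edgeR adjusted p = 0.000186). *Jun* itself had values of 0.1 and 0.14 in the same 2 comparisons. The basic leucine zipper factor *Maff* was lower on the HFD (-0.77, edgeR adjusted p = 0.00973), and the zinc finger factor *Klf6* (-0.46, edgeR adjusted p = 0.00117) and the ETS factor *Elk3* (-0.21, edgeR adjusted p = 0.0376) were lower on the standard diet. The medians of the list were -0.05 and -0.19.

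Part of these calls depended on the fit. With only mice 1 to 4 of the HFD agonist group, none of the 4 named genes passed in edgeR (*Mapk3* -0.32, adjusted p = 0.0636, *Rps6ka1* -0.22, 0.143, *Junb* -0.77, 0.0663, *Maff* -0.54, 0.134). Of the 11 named on the standard diet, *Gab1*, *Rasal2*, *Junb* and *Nf1* were still called when all 36 libraries shared 1 fit, and the other 7 were not. With only Fc mice 6 to 9, *Gab1*, *Rasal2*, *Junb*, *Klf6* and *Spred2* were still called. *Elk3* was lost without any one of Fc mice 2, 3, 5, 6 and 9 or Fc(mML1)B3 mice 2, 3, 4 and 6, at -0.21 to -0.19, and no other of the 15 was lost without a single mouse.

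**Figure D3:**
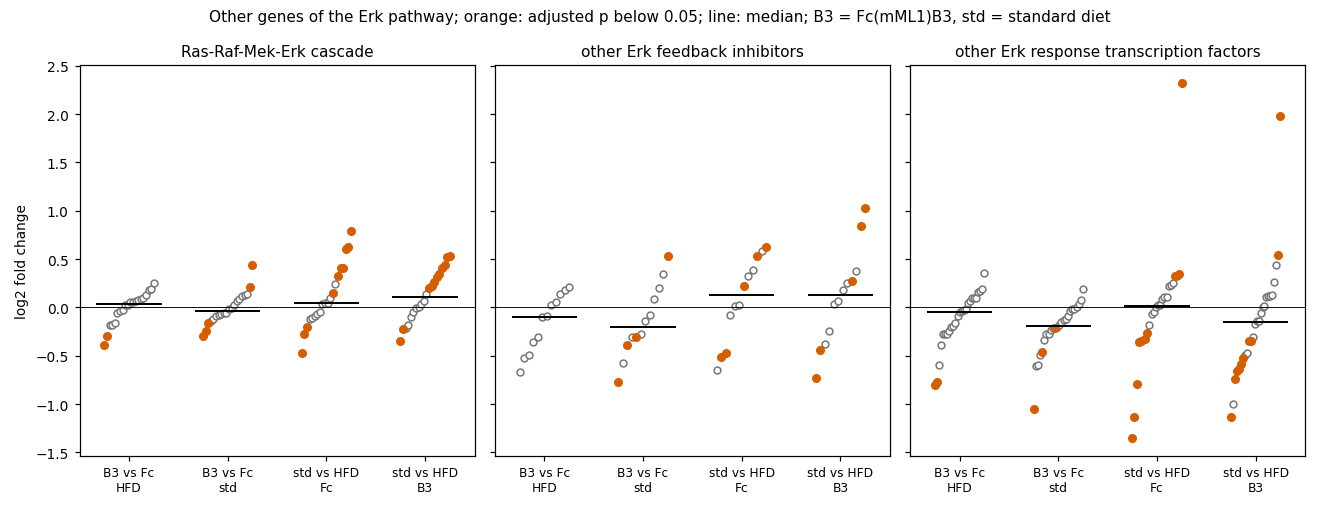
Log2 fold changes of the genes of the 3 other lists in each comparison between groups. The lists are the cascade, other inhibitors (feedback inhibitors together with Ras inactivators) and other response factors. Each point is 1 gene and each line the median of a list, with points filled where the edgeR adjusted p was under 0.05. In the treatment comparisons all called response factors lie below 0, and the diet comparisons hold called genes on both sides of 0.

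In the interaction of diet and treatment, where 9.06% of all genes were called, 2 of the 20 cascade genes were higher and 0 lower, with *Rps6ka1* the second beside *Gab1* (0.44, edgeR adjusted p = 0.00286). Of 13 genes of the inhibitor list tested, *Spred3* was higher (1.04, edgeR adjusted p = 0.0319) and the Ras inactivator *Nf1* lower (-0.43, edgeR adjusted p = 0.0129). Of 26 response factors tested, 0 passed in edgeR, DESeq2 or limma-voom, and 1 had an unadjusted p under 0.05. The *Spred3* call was lost without any one of Fc(mML1)B3 HFD mouse 8, Fc standard diet mice 1 and 7 and Fc(mML1)B3 standard diet mice 2, 3 and 4, with values of 0.96 to 0.99.

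Between the diets, 7 cascade genes were higher and 3 lower in the Fc mice on the standard diet, and 9 were higher and 2 lower in the Fc(mML1)B3 mice. The 10 of 20 called in the Fc mice stand beside 49.0% of all genes, and the 11 of 20 in the Fc(mML1)B3 mice beside 38.2%. *Sos1* (0.79 in Fc mice and 0.53 in Fc(mML1)B3 mice, edgeR adjusted p = 8.14e-08 and 0.0008), the phosphatase *Ptpn11* (0.63 and 0.52, edgeR adjusted p = 1.14e-07 and 6.32e-06) and the kinase *Braf* (0.6 and 0.44, edgeR adjusted p = 2.78e-06 and 0.000312) did not overlap between the diets in either treatment. *Mapk3* was lower in both treatments (-0.47 in Fc mice, edgeR adjusted p = 3.32e-06, and -0.22 in Fc(mML1)B3 mice), and so was the adaptor *Grb2* (-0.2 in Fc mice, and -0.35 in Fc(mML1)B3 mice, edgeR adjusted p = 7.13e-06).

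Of the 12 genes of the inhibitor list tested, 3 were higher and 2 lower in each diet comparison. Over all genes, 49.0% were called in the Fc mice and 38.2% in the Fc(mML1)B3 mice. The shares of the list were near these. Like its relative *Spry2*, *Spry1* was lower (-0.51 in Fc mice and -0.73 in Fc(mML1)B3 mice, edgeR adjusted p = 0.00389 and 0.000495), and so was the Erk phosphatase *Dusp7* (-0.47 and -0.44, edgeR adjusted p = 8.09e-05 and 0.00177). In the Fc mice *Nf1* (0.63, edgeR adjusted p = 5.21e-07) and *Rasa1*, both Ras inactivators, were higher (*Rasa1* 0.22, edgeR adjusted p = 0.00264). Higher in the Fc(mML1)B3 mice were *Spred3* (1.03, edgeR adjusted p = 0.00357) and the nuclear phosphatase *Dusp4* (0.84, edgeR adjusted p = 0.0294), both with a mean under 2 CPM. *Rasa1* was not called under upper-quartile scaling (0.13, edgeR adjusted p = 0.0571), and *Dusp4* was lost without HFD mouse 3 (0.78, edgeR adjusted p = 0.0515) and without standard diet mouse 5 (0.73, edgeR adjusted p = 0.0722) or 6 (0.78, edgeR adjusted p = 0.0599).

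The largest difference of any gene in the 3 lists was that of *Elk4*, an ETS factor that binds with Srf at immediate early promoters. It ran from 1.5 through 2.76 to 4.06 CPM in the Fc mice on the HFD and from 11 through 13.4 to 15.7 CPM on the standard diet, a 4.99-fold difference with no overlap (log2 fold change 2.32, SE 0.14, edgeR adjusted p = 1.33e-10). In the Fc(mML1)B3 mice the log2 fold change was 1.98 (SE 0.16, edgeR adjusted p = 2.98e-08). Its relative *Elk3* was lower in both (-0.35 and -0.52, edgeR adjusted p = 0.000637 and 3.74e-05). Of the 24 response factors tested in the Fc mice, 3 were higher and 7 lower, beside 23.9% and 25.2% of all genes. Among the lower were *Etv4* (-1.35, edgeR adjusted p = 0.000421) and *Ier3* (-1.13, edgeR adjusted p = 0.000472). *Etv4* was near the floor, with means of 0.394 CPM on the standard diet and 1.02 CPM on the HFD in these mice. Of 26 tested in the Fc(mML1)B3 mice, 2 were higher and 8 lower, beside 19.1% of all genes in each direction, with *Atf3* (-0.74, edgeR adjusted p = 6.77e-05) and *Ier5* (-0.64, edgeR adjusted p = 0.000233) among the lower.

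Whether the members moved together from mouse to mouse was read within the groups. In 24 tests of 6 pairs in 4 groups, on log2(CPM + 0.5), 0 passed after Benjamini-Hochberg adjustment, and 17 of the 24 coefficients were above 0. The value farthest from 0 was that of *Dusp6* and *Dusp1* in the 7 Fc(mML1)B3 mice on the standard diet (Pearson r = 0.84, exact permutation p = 0.0204, adjusted 0.265, Spearman rho = 0.86, exact permutation p = 0.0238, adjusted 0.306). Without the 2 mice farthest from the median of *Dusp6*, r was 0.91. In the 9 Fc mice under the same diet r was -0.57 (exact permutation p = 0.106, adjusted 0.318) and rho was -0.75 (exact permutation p = 0.0255, adjusted 0.306), and r was -0.23 without 2 mice. *Fos* and *Dusp1* gave r = 0.62 in the Fc mice on the HFD (permutation p = 0.0584, rho = 0.61, permutation p = 0.0663) and r = -0.66 in the Fc(mML1)B3 mice (permutation p = 0.0305, rho = -0.56, permutation p = 0.0956), with adjusted p-values of 0.265 for both r and 0.376 for both rho. Leaving out 2 mice brought these to 0.46 and -0.24.

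After each gene was centred on its group means, the 45 pairs of members had Pearson r between -0.58 and 0.54 over the 36 mice, with a median of 0.15, and 35 of 45 were above 0. Points from 1 library share its depth and scaling. The inhibitors *Spry2* and *Spred1* and the factor *Etv5* formed the closest trio, with r = 0.54 for *Spry2* with either of the others and 0.53 for *Spred1* with *Etv5*. *Dusp1* and *Jun* had r = 0.50, and *Dusp6* and *Jun* 0.47. *Dusp6* and *Myc* lay at the other end, at -0.58. These values are descriptions without a test.

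**Figure D4:**
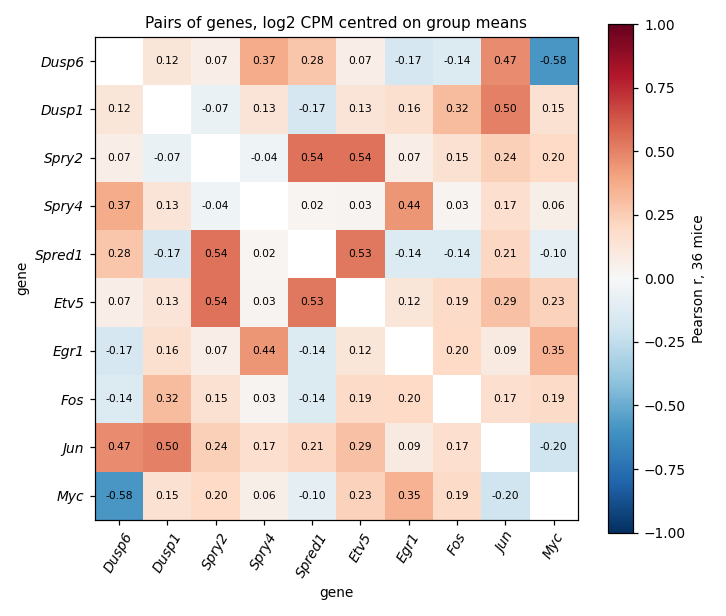
Pearson r of every pair of the 10 genes over 36 mice, on log2(CPM + 0.5) after centring each gene on its group means; red is positive and blue negative, and the value is written in each square. *Spry2*, *Spred1* and *Etv5* are positive with each other, at 0.53 to 0.54, and *Dusp6* with *Myc* is the lowest, at -0.58.

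Among all genes, those most like *Dusp6* across the 36 centred values were *Sall1* (r = 0.72), *BC024978* (0.58), *Tbx3* (0.57), *Rprd2* (0.56) and *Spg20* (0.56). *Sall1* held within each group, with r from 0.55 to 0.94. Those most like *Fos* were *Arhgap30* (0.68), *Gm21188* (0.67), *Sla* (0.66), *Mpeg1* (0.65) and *Lair1* (0.63). *Mpeg1*, a gene of macrophages, had r of 0.7, 0.85 and 0.75 in 3 groups but -0.52 in the Fc(mML1)B3 mice on the HFD, so the likeness of *Fos* to it was not seen in that group.

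The neighbours of 4 other members were chosen after their values were seen. For *Myc* they were *Gadd45g* (r = 0.87), *Foxq1* (0.86), *Socs3* (0.82), *Phlda1* (0.82) and *Plk3* (0.75), which include stress and cytokine response genes, and the first 4 had r of at least 0.61 in every group. For *Dusp1* they were *Ddit4* (0.75), *Fmo5* (0.73), *St3gal5* (0.71), *Tsc22d3* (0.71) and *Plin5* (0.71). *Ddit4* and *Tsc22d3* are well-known glucocorticoid-induced genes. In the Fc(mML1)B3 mice on the HFD and the Fc mice on the standard diet, r with *Dusp1* was 0.4 and 0.37 for *Ddit4* and 0.38 and 0.29 for *Tsc22d3*. *Fmo5* had r of 0.9 and 0.94 in 2 groups but -0.13 in the Fc(mML1)B3 mice on the HFD and 0.19 in the Fc mice on the standard diet. *Egr1* had *Sema4b* (0.59), *Galnt18* (0.57), *Junb* (0.57), *Slc2a1* (0.55) and *Tmem200b* (0.55), and *Jun* had *Cdc42se1* (0.65), *Sh3gl1* (0.65), *Epha2* (0.64), *Clic4* (0.63) and *Col5a2* (0.62).

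**Figure D5:**
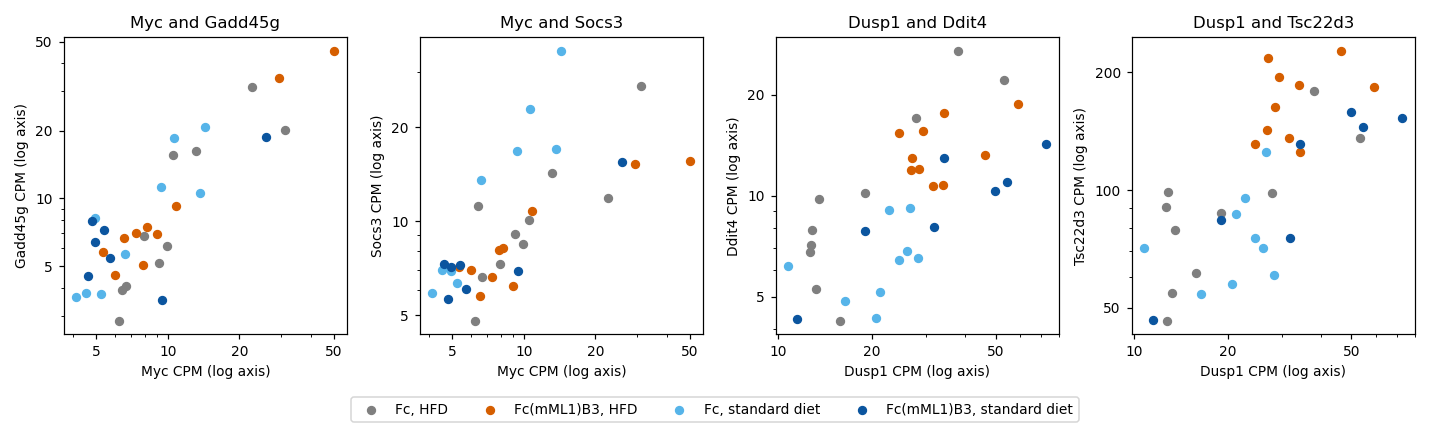
*Myc* against *Gadd45g* and *Socs3*, and *Dusp1* against *Ddit4* and *Tsc22d3*, in CPM on log axes; each point is 1 of 36 mice, coloured by group. The mice with the highest *Myc*, at 50.1, 31.2 and 29.2 CPM, are also among the highest for *Gadd45g*, and *Ddit4* and *Tsc22d3* follow *Dusp1* most closely in the Fc mice on the HFD (r of 0.87 and 0.76) and the Fc(mML1)B3 mice on the standard diet (0.89 and 0.92).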

How the data were processed

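Each of the 36 deposited tables holds raw read counts per gene for 1 mouse. According to the study's methods, the submitters' processing notes and the file headers, the authors trimmed 100-base paired reads with fastp, removed ribosomal reads with Bowtie2 2.4.5, aligned to mm10 with STAR 2.7.10a and counted with featureCounts (Subread 2.0.3), requiring both ends of a pair. Each end was counted as a read, strand was ignored and reads that map to several places were not counted, so reads of overlapping genes cannot be separated.

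Groups came from the sample titles. Counts were tested with edgeR 4.0.16 (quasi-likelihood F-test, TMM, filterByExpr) in R 4.3.3, with p-values adjusted by Benjamini-Hochberg over all genes tested and a threshold of 0.05. Each treatment or diet comparison was fitted on its 2 groups only, and the interaction on all 36 libraries. Limma 3.58.1 and DESeq2 1.42.0, upper-quartile scaling, a filter of 0.5 CPM in 1 library, a replicate block, 1 fit of all libraries, the study's thresholds, subsets by library number and leaving out each mouse were alternatives. Correlations within groups used two-sided permutation tests, exact below 10 mice and with 100000 resamples at 10. Scripts were tested on simulated counts. All 147 pairs of libraries within a group differed beyond counting noise (lowest chi-square per degree of freedom 6.305), so none was counted as a copy.

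Named were all members, the called genes with the smallest 4 p-values in each pathway list and comparison, the 5 genes most like *Fos* and *Dusp6*, and *Arntl*. The rule also covered *Dbp*, *Hspa1a* and *Hspa1b*, given in the closing section. Members, gene lists and tests were chosen with earlier results of these data known. Mice sampled before treatment were not analysed here.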

Additional observations from a re-analysis of the deposited data

Results flagged for a closer look

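In 4 of the 40 sets of values tested (10 genes in 4 groups), the highest mouse stood farther from the next than Dixon's 95% limit allows, and chance alone gives about 1 in 20. *Spry4* was 19 CPM in mouse 7 of the Fc(mML1)B3 group on the standard diet, where the next mouse had 10.1 CPM. *Egr1* was 43.0 CPM in mouse 3 of that group, against 18.6 CPM in the next. *Myc* was 25.8 CPM in the same mouse 3, against 9.47 CPM in the next. *Myc* was also 50.1 CPM in mouse 2 of the Fc(mML1)B3 group on the HFD, against 29.2 CPM in the next.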

How the results depend on the processing

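Of the counts of members that passed, those of the diet comparisons and of the interaction stayed within 1.5 times under all 6 and 5 other settings. On the HFD the count of members was 0 and became 1 with limma-voom, and leaving out 1 mouse at a time gave 0 to 1. On the standard diet it was 1 and became 0 with limma-voom, with all 36 libraries in 1 fit and with Fc mice 6 to 9 only, and leaving out 1 mouse gave 0 to 2. The same step gave 2 to 3 in the Fc mice and 3 to 5 in the Fc(mML1)B3 mice between diets, and 0 for the interaction. No called value changed sign.

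Over all genes, the 1972 calls on the HFD became 3133 with all 36 libraries in 1 fit, 705 with Fc(mML1)B3 mice 1 to 4 only and 178 under the study's thresholds (adjusted p under 0.1 and a fold change above 2). Upper-quartile scaling turned their split of 1083 higher and 889 lower into 865 and 1075. The 2186 calls on the standard diet became 785 with all 36 libraries in 1 fit, 942 with Fc mice 6 to 9 only and 320 under one pair of the study's thresholds (adjusted p under 0.05 and a fold change above 1.5). The causes were not tested.

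Mice with the same replicate number did not deviate together (33 pairs, r from -0.62 to 0.26, median -0.03), so the numbers pair no samples. With the replicate block, members passing were 0 and 1 on the HFD and the standard diet, 3 and 4 between diets and 0 for the interaction. The 4 were not the same genes in the Fc(mML1)B3 mice, where *Spry4* was not called (0.32, edgeR adjusted p = 0.208) and *Egr1* was (-0.66, edgeR adjusted p = 0.0212). The block also ended calls of *Rps6ka1* on the HFD, of *Arntl*, *Elk3*, *Map2k2* and *Rps6ka3* on the standard diet, of *Hspa1a* in the Fc mice and *Spred3* in the Fc(mML1)B3 mice between diets, and of *Spred3* and *Hspa1b* in the interaction. Over all genes the block gave 1294 calls on the HFD and 1296 on the standard diet. *Dusp1* was 0.80 on the HFD (edgeR adjusted p = 0.0539).

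With 7 to 10 mice a group, the intervals of *Myc* and *Egr1* held a 1.5-fold fall in both treatment comparisons. Those of *Myc* also held a 1.5-fold rise in both, and that of *Fos* held such a fall on the standard diet. The intervals for *Fos* and *Spry2* also carry counting error of few reads. *Junb* on the HFD was -0.77 with Fc(mML1)B3 mice 1 to 4 only and did not pass (edgeR adjusted p = 0.0663). It passed in edgeR with mice 5 to 10 only.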

Other observations

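Of the 2 inducible Hsp70 genes, *Hspa1b* was 1.39 (edgeR adjusted p = 0.000948) and *Hspa1a* 0.97 (edgeR adjusted p = 0.00917) on the log2 scale on the HFD, in the Fc(mML1)B3 group against the Fc group. Neither passed with only Fc(mML1)B3 mice 1 to 4 (1.09 and 0.96, edgeR adjusted p = 0.0536 and 0.0582). On the standard diet the values were 0.15 (edgeR adjusted p = 0.743) and 0.18 (edgeR adjusted p = 0.735). These 2 genes are near copies of each other and reads that fit both were not counted, so their levels are uncertain. The clock output gene *Dbp* had a median of 97.8 CPM in the Fc group and 6.33 CPM in the Fc(mML1)B3 group on the HFD (log2 fold change -3.31, edgeR adjusted p = 5.38e-07), and its value on the standard diet was 0.14 (edgeR adjusted p = 0.625). The exons of *Dbp* overlap those of *Sphk2*, whose reads cannot be separated from it.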
